A study of Mus musculus with 2 samples.

Results

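The MHC class II pathway is described here by 9 genes chosen by symbol, out of 55536 annotated genes in the gene-level tables. They are the classical chain genes H2-Aa, H2-Ab1 and H2-Eb1, the peptide-loading genes H2-DMa, H2-DMb1, H2-DMb2 and H2-Oa, the invariant chain gene Cd74 and the transactivator gene Ciita. Together they have 47 annotated transcripts. Ribosomal RNA-depleted total RNA was sequenced from C57BL/6J bone marrow-derived macrophages, cells that are differentiated in culture from marrow precursors. The cells had received Lipid A, the Toll-like receptor 4 ligand of bacterial lipopolysaccharide, at 100 ng/ml for 12 h, had then been washed and kept without it for 12 h, and were collected at 0 min of a further exposure. The RNA came from the nucleoplasm, and the samples' source label names the nuclear fraction. Both libraries belong to this 1 group as biological replicates 1 and 2. Their biosamples differ but carry the same donor label, and age and sex were not recorded. Replicate 1 started from 1 µg and replicate 2 from 500 ng of RNA. All values are therefore levels in 1 condition and differences between 2 libraries, and no change with Lipid A can be read from them.

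Class II molecules are surface dimers of an alpha and a beta chain that show peptides from endocytosed proteins to CD4+ T cells. The invariant chain CD74 occupies the groove of new dimers in the endoplasmic reticulum and guides them to late endosomes, where proteases cut it down and the DM dimer exchanges its last fragment for other peptides, a step that the DO dimer restrains. CIITA does not bind DNA by itself but is recruited to promoters of these genes by RFX, CREB and NF-Y, and its own transcription in macrophages is known to respond to interferon gamma.

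Promoter sequences are shown because RFX, CREB and NF-Y are known to act through short motifs there, and the genes printed lie at both high and very low levels. H2-Eb1, H2-DMb2 and H2-Eb2 carry a pair of these motifs, and H2-Aa a different combination. RefSeq promoter windows on GRCm38.p6, with 250 bases before and 50 after each start, were at hand for 6 of the 9 members (H2-Aa, H2-Eb1, H2-DMa, H2-DMb1, H2-DMb2 and H2-Oa). The letters searched were ATTGG, the reversed CCAAT box bound by NF-Y, AACNGATG, a part of the X box bound by RFX, and TGACGTCA, the full cyclic AMP response element. They were chosen after the sequences had been seen and were searched on both strands, and none overlapped another in the stretches shown. Each stretch is written 5′ to 3′ on the gene's strand, with the matches in capitals. They lie at chr17:34287857-34287916 (minus strand) for H2-Aa, chr17:34305763-34305822 (plus strand) for H2-Eb1, chr17:34145114-34145173 (plus strand) for H2-DMb2 and chr17:34325530-34325589 (plus strand) for H2-Eb2, a class II beta gene outside the 9.
H2-Aa: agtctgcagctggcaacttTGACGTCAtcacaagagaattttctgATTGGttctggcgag
H2-Eb1: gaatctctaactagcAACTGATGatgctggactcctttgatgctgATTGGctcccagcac
H2-DMb2: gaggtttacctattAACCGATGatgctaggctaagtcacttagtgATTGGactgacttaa
H2-Eb2: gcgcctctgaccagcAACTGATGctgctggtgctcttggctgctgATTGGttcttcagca

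In H2-Eb1 and H2-Eb2 the 2 motifs stood 22 bases apart, and in H2-DMb2 and H2-DMb1 they stood 23 bases apart. The ATTGG of this pair began 59 bases before the RefSeq start of H2-Eb1, 100 before that of H2-Eb2, 90 before that of H2-DMb2 and 61 before that of H2-DMb1. H2-Aa had TGACGTCA 74 bases and ATTGG 48 bases before its start, without AACNGATG. H2-Oa had ATTGG alone, 43 bases before its start. H2-DMa had ATTGG in 1 of its 2 windows, 198 bases before that start, which is position 34125518. The annotated H2-DMa transcripts whose levels are given below begin near positions 34119541, 34122822, 34135628 and 34137028, and not near that start. No window covered the start near position 34135628. Over all 32851 promoter windows, 37.4% held ATTGG, 2.32% held AACNGATG and 1.79% held TGACGTCA. AACNGATG followed by ATTGG within 40 bases was found in 17 windows (0.0517%), and 4 of these 17 belonged to the class II genes H2-DMb1, H2-DMb2, H2-Eb1 and H2-Eb2. A letter match describes the sequence only. Of these 4 class II genes with the pair, H2-Eb1 lay among the higher levels in the gene-level tables. There H2-DMb1 had 11.7 and 6.70 TPM, and H2-DMb2 and H2-Eb2 were at or under 0.24 TPM.

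Macrophage markers were present at high levels in both libraries, and markers of other antigen-presenting cells were low in the gene-level tables. The libraries held 22907877 (replicate 1) and 18612405 (replicate 2) expected counts, of which the 9 genes took 0.0509% and 0.0364%. All 12 macrophage markers reached 10 TPM in both libraries, among them Lyz2 (1368 and 1126 TPM), Mpeg1 and Adgre1. Of 10 B cell markers none reached 1 TPM in both libraries in these tables, and their TPM summed to 1.92 in replicate 1 and 2.26 in replicate 2. Cr2 (0.72 and 1.09 TPM), Cd79b and Fcer2a were the highest of them, while Ebf1 and Vpreb3 had 0 counts. Of 10 dendritic cell markers, Batf3 (6.99 and 2.43 TPM) and Ly75 (1.81 and 1.41 TPM) reached 1 TPM in both libraries, Zbtb46 was at 0.74 TPM in each, and Cd209a had 0 counts. Their TPM summed to 11.4 and 6.56. None of 5 T cell and 5 granulocyte markers reached 1 TPM in either library. The highest T cell markers, Cd3d, Cd8a and Cd3g, had at most 4 counts in a library, and Cd3e and Lck had 0. The granulocyte markers S100a8, S100a9 and Elane likewise had at most 4 counts, and Ly6g had 0. A second deposited quantification of the same reads gave higher values in both libraries for 14 of these 30 markers of other cells, among them 5 of 10 B cell and 5 of 5 T cell markers. In it 4 markers reached 1 TPM in both libraries. Cr2 had 1.74 and 2.95 TPM, Fcer2a 4.13 and 4.02, Cd3d 1.76 and 4.20, and Batf3 4.08 and 2.57. Batf3 had also reached it in the gene-level tables, whereas Ly75 fell to 0.879 and 0.882 TPM in the second quantification. Of the 10 dendritic cell markers 3 were higher there in both libraries. The B cell markers summed to 7.54 and 8.71 TPM there, so their low levels depend on the quantification. The part of such cells in the class II levels was not tested. In bulk RNA, fewer cells that express a gene and less RNA per cell cannot be told apart.

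The class II genes fell into a well-detected set of 7 and a pair close to no signal. TPM, a transcript abundance per unit of length scaled to the same total in each library, was at least 1 in both libraries for 7 of 9 members, against 44.4% of 22028 protein-coding genes. It was at least 10 for 5 members (19.7% of protein-coding genes) and at least 100 for 1 member, Cd74 (1.24%). The median member lay at 4.48 ± 0.79 on the log2(TPM + 0.1) scale (SD, n = 2), and the median of all protein-coding genes at -0.91 ± 0.05. The members were picked as genes of a known pathway, so these shares describe them and are no evidence that the pathway stands out.

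**Figure D1:**
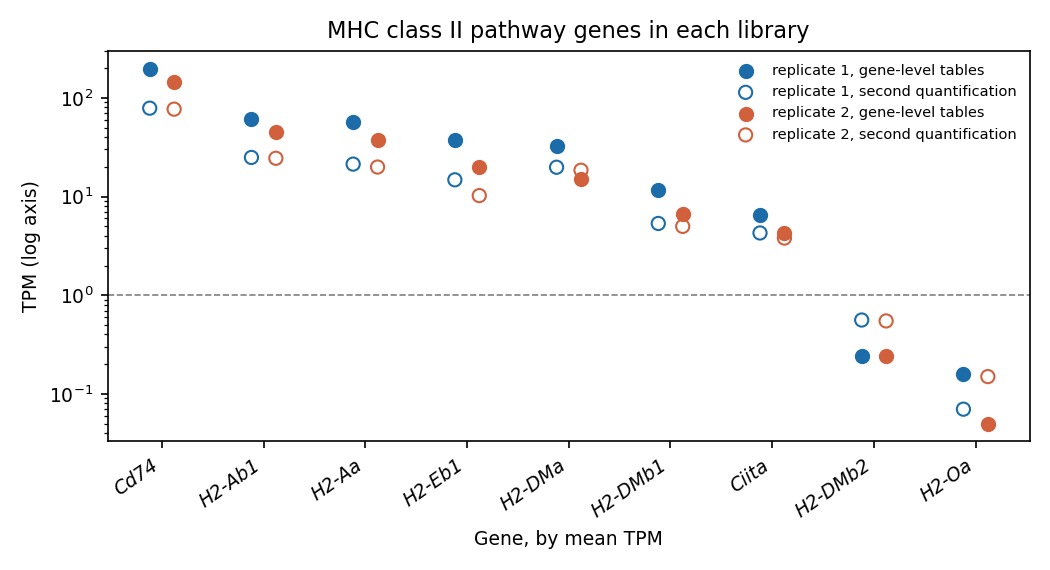
TPM of the 9 class II pathway genes on a log axis, with filled points for the gene-level tables, open points for the second quantification, blue for replicate 1 and orange for replicate 2; the dashed line marks 1 TPM. Cd74 stands highest, 7 genes lie above the line in every set, and H2-DMb2 and H2-Oa lie below it.

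The classical chains were led by H2-Ab1 and H2-Aa, the pair that forms I-A, the class II dimer of C57BL/6J mice. H2-Ab1, the I-A beta chain gene (ENSMUSG00000073421.6, mm10 chr17:34257689-34269419), had 61.6 TPM in replicate 1 and 45.1 in replicate 2, from 1623 and 912 expected counts. H2-Aa, its alpha chain partner (chr17:34282744-34287823), had 56.3 and 37.4 TPM, from 1686 and 992 counts. The ranges of the 2 genes overlapped, and within a library H2-Ab1 stood at 1.09 times H2-Aa in replicate 1 and 1.21 times in replicate 2. This order depended on the measure. The leading coding transcript had 53.1 and 33.0 TPM for H2-Ab1 and 52.0 and 33.5 TPM for H2-Aa. By counts H2-Aa was the higher in both libraries. H2-Eb1, the beta chain gene of the other dimer, I-E (chr17:34305867-34316674), was at 37.7 and 19.8 TPM, which was 0.611 and 0.440 of H2-Ab1. Its range overlapped that of H2-Aa and not that of H2-Ab1. H2-Ea-ps, the I-E alpha chain gene, which in C57BL/6 mice is known to lack a working promoter and is annotated as a polymorphic pseudogene, had 0 counts in both libraries and in both quantifications. A floor of 3 counts would allow up to 0.165 TPM and 0.189 TPM, respectively. H2-Eb1 was thus detected with no detectable level of its alpha chain partner. Limits and intervals of this kind cover counting error only.

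Cd74 was the highest member. Its TPM was 198 in replicate 1 and 144 in replicate 2, from 5949 and 3723 expected counts (ENSMUSG00000024610.15, chr18:60803848-60812652), with a mean of 171 ± 38.3 TPM (SD, n = 2). Both values lay above every value of the other members. By TPM over all transcripts, the ratio of Cd74 to H2-Ab1 was 3.22 in replicate 1 and 3.20 in replicate 2. The second quantification put it at 3.16 and 3.15. By gene-level TPM of protein-coding transcripts alone, Cd74 had 194.6 and 142.5 against 54.1 and 33.0 for H2-Ab1. There H2-Ab1 was lower in replicate 2 by a larger factor than Cd74, so the near-constant ratio depends on the measure. In the gene-level tables Cd74 over H2-Aa varied more between the libraries, at 3.52 and 3.86. In the second quantification H2-DMa over H2-DMb1 varied less, at 3.713 and 3.710.

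In the gene-level tables the DM genes were lower than H2-Ab1 and H2-Aa, and the DO gene was near 0. H2-DMa, the alpha chain gene of the peptide exchange factor (chr17:34119541-34139101), had 32.67 and 15.04 TPM, from 424 and 211 counts after rounding. Its range overlapped that of H2-Eb1 and not that of H2-DMb1. H2-DMb1, a beta chain gene of DM (chr17:34153072-34160230), had 11.7 and 6.70 TPM, and H2-DMb2, the neighbouring beta chain gene (chr17:34143307-34151555), had 0.24 TPM in each library, from 8.11 and 7.11 counts. H2-Oa, the alpha chain gene of DO (chr17:34092340-34095234), had 4 counts and 1 count, or 0.16 and 0.05 TPM. H2-Ob, its beta chain partner and no member of the 9, was at 0.21 and 0.22 TPM. Neither DO chain reached 1 TPM in the gene-level tables, while H2-Ob was at close to 1 TPM (0.975 and 1.098) in the second quantification.

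The beta chain genes of DM are near copies, and their split is uncertain. The transcripts H2-DMb1-201 and H2-DMb2-203 were identical at 89.0% of 1214 aligned bases, and 37.6% of the 31-base words of H2-DMb1-201 also occur in H2-DMb2. The share was still 13.7% for words of 100 bases. Their promoter windows were identical at 84.2% of 247 aligned bases. The second quantification gave H2-DMb2 0.561 and 0.549 TPM, above the gene-level values, and kept it under H2-DMb1 at 5.34 and 4.98 TPM. In both quantifications and both libraries H2-DMb1 was thus the higher of the pair.

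Ciita, the transactivator gene, was the lowest of the 7 detected members. Its TPM was 6.45 in replicate 1 and 4.31 in replicate 2, from 609 and 332 counts (ENSMUSG00000022504.10, chr16:10480059-10528418). Both values were under the lower of the H2-DMb1 values, 6.70 TPM, by a small margin in replicate 1. In the order of mean TPM, the neighbours H2-Ab1 and H2-Aa, H2-Aa and H2-Eb1, and H2-Eb1 and H2-DMa overlapped between libraries. The remaining neighbours did not, with 2 values per gene. Within each library the order of all members was the same except that H2-DMb2 and H2-Oa, both near 0, have too few counts to be ordered.

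The second quantification lowered most members by more than the typical gene. Its TPM was 0.558 of the gene-level TPM in replicate 1 and 0.751 in replicate 2 for the median gene compared, and 0.404 and 0.542 for the median of the 7 detected members. The members ranged from 0.379 to 0.663 in replicate 1 and from 0.516 to 1.23 in replicate 2. Cd74 was at 78.6 and 76.8 TPM there, H2-Ab1 at 24.9 and 24.4, H2-Aa at 21.3 and 19.9. H2-DMa, at 19.8 and 18.5 TPM, stood above H2-Eb1, at 14.8 and 10.2, in both libraries there, the reverse of their order in the gene-level tables. Absolute levels and the place of H2-DMa among the chains therefore depend on the quantification, while Cd74 was highest in both.

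The genes that act with the members were mostly detected. Of 16 other class II pathway genes, 13 reached 1 TPM in both libraries, 7 reached 10 TPM, and H2-Ob, H2-Eb2 and H2-Ea-ps stayed under 1 TPM. Among the proteases and enzymes that process the invariant chain and antigen, Ctss, cathepsin S, had 1105 and 635 TPM. Lgmn, the asparagine endopeptidase legumain, had 712 and 412 TPM, and Ctsl, cathepsin L, 88.1 and 49.9 TPM. Ifi30, the gene of the lysosomal thiol reductase, was lower at 7.44 and 6.66 TPM. The annotation used here gives Ifi30 the type processed transcript and not protein-coding. All 4 were detected in both libraries, and Ctss and Lgmn stood above Cd74.

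Of the promoter-binding proteins, Nfya was at 36.7 and 32.1 TPM and Creb1 at 23.7 and 27.8 TPM, while the other subunits were at single-digit levels. Rfx5 had 5.23 and 5.84 TPM, Rfxank 2.48 and 2.52, Rfxap 2.52 and 1.59, Nfyb 4.50 and 4.63, and Nfyc 4.51 and 3.44. The ubiquitin ligases that can remove class II from the surface, March1 and March8, had 28.8 and 21.7 TPM and 25.4 and 23.5 TPM. All these genes were detected in both libraries, and March1 and March8 lay in the range of H2-Eb1.

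The genes that act on Ciita were present except for interferon gamma itself. Of 13 such genes 11 reached 1 TPM in both libraries and 10 reached 10 TPM. Irf1, an interferon regulatory factor, had 96.7 and 58.8 TPM and Spi1, which encodes the myeloid factor PU.1, had 50.2 and 43.5 TPM. Ifng had 0 counts in both libraries, which allows up to 0.184 and 0.211 TPM at a floor of 3 counts, and Irf4 was at 0.21 and 0.34 TPM. Of 6 co-stimulatory genes 5 reached 1 TPM in both, with Cd274 (257 and 235 TPM), Cd86 (24.5 and 19.8 TPM) and Cd40 (18.2 and 10.4 TPM) highest and Pdcd1lg2 lowest at 0.90 and 0.54 TPM.

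On chromosome 17, class II genes above 1 TPM lay beside others under 1 TPM. The stretch from H2-Oa to H2-Ea-ps, chr17:34092340-34344645 or 252.3 kb, held 22 annotated genes, of which 10 were class II genes. The 5 other protein-coding genes, Brd2, Psmb9, Tap1, Psmb8 and Tap2, which include the peptide transporter and immunoproteasome genes of the class I pathway, were all at 10 TPM or more in both libraries. Of the 7 further genes, which are noncoding or pseudogenes, 4 were under 1 TPM in both libraries in the gene-level tables and 1 in the second quantification. H2-DMb2 at 0.24 TPM thus lay between H2-DMa and H2-DMb1, and H2-Ob at 0.21 and 0.22 TPM between Tap2 and H2-Ab1. Gm20513, an antisense gene that overlaps the H2-Eb1 locus with 0 shared exon bases, had 2 counts and 0 counts in the gene-level tables but 595 and 476 in the second quantification.

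**Figure D2:**
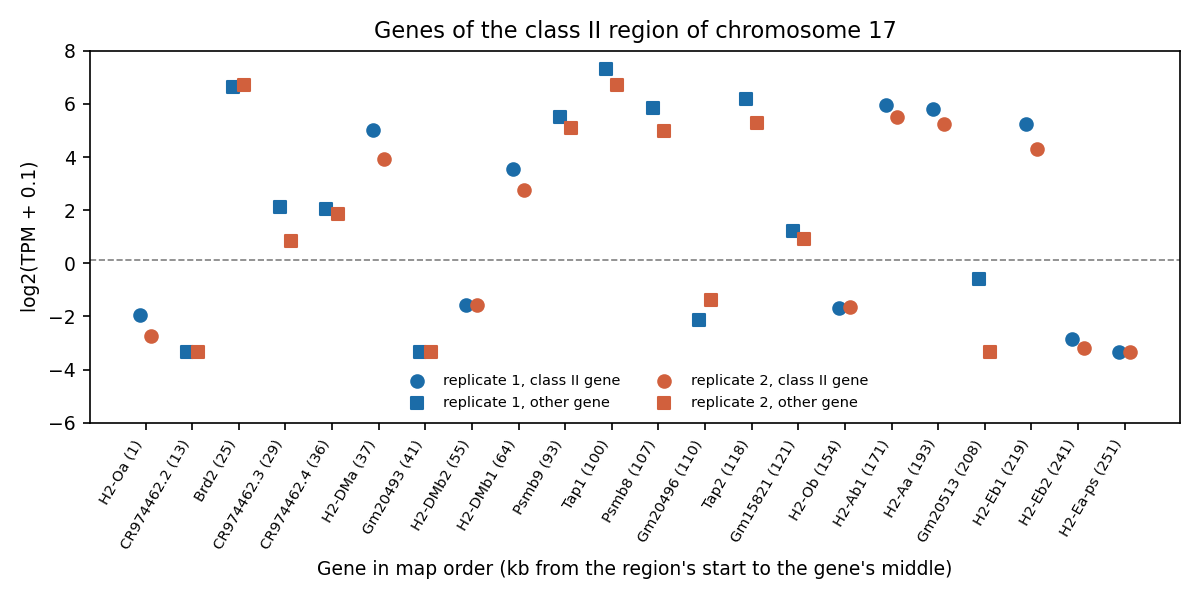
Levels on the log2(TPM + 0.1) scale of the 22 genes of the class II region in map order, with the distance in kb from the region's start in brackets, circles for class II genes, squares for other genes, blue for replicate 1 and orange for replicate 2; the dashed line marks 1 TPM. High and near-0 class II genes are interspersed along the map, and the 5 other protein-coding genes all lie well above the line.

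Some members share exon bases with other genes. H2-DMa shared 360 exon bases with Brd2 on the opposite strand, Ciita 329 with Dexi and H2-Oa 321 with the antisense gene BC051537. Whether counting used strand is not given in the sources used here, so the counts of these members are uncertain by the reads that fall there.

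Replicate 2 was lower than replicate 1 for every member with enough counts to compare. The log2 ratio of replicate 2 over replicate 1, after TMM scaling, was under 0 for 7 of 7 members whose counts averaged at least 100, against 50.8% of the 10198 genes past that count. It was -0.42 for Cd74 with an exact 95% counting interval from -0.48 to -0.36, -0.51 for H2-Aa (-0.62 to -0.40) and -0.58 for H2-Ab1 (-0.69 to -0.46). Ciita was at -0.62 (-0.82 to -0.42), H2-DMa at -0.75 (-0.996 to -0.51) and H2-DMb1 at -0.78 (-1.04 to -0.53). H2-Eb1 had the lowest of the 7 ratios at -0.98 (-1.15 to -0.81). These 7 intervals exclude 0, but they hold counting error alone and not the spread between cultures, for which 1 library per side gives no estimate.

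None of the 7 passed the rule for genes apart, an absolute log2 ratio of at least 1 with a mean count of at least 100, which 2% of genes passed. The 25th percentile of all genes was -0.22 and the 5th percentile -0.62, so that all 7 lay under the 25th and H2-Eb1, H2-DMb1, H2-DMa and Ciita under the 5th, Ciita only just. In the second quantification, where the 5th percentile was also -0.62, H2-Eb1 (-0.93), H2-DMb1 (-0.72) and H2-Ab1 (-0.68) were under it, and H2-DMa (-0.57) and Ciita (-0.56) were not. H2-DMb2 and H2-Oa failed the filter on low counts. Their ratios, 0.06 and -1.39, had intervals from -1.63 to 1.72 and from -7.37 to 1.59, so that no difference was detectable at this depth.

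**Figure D3:**
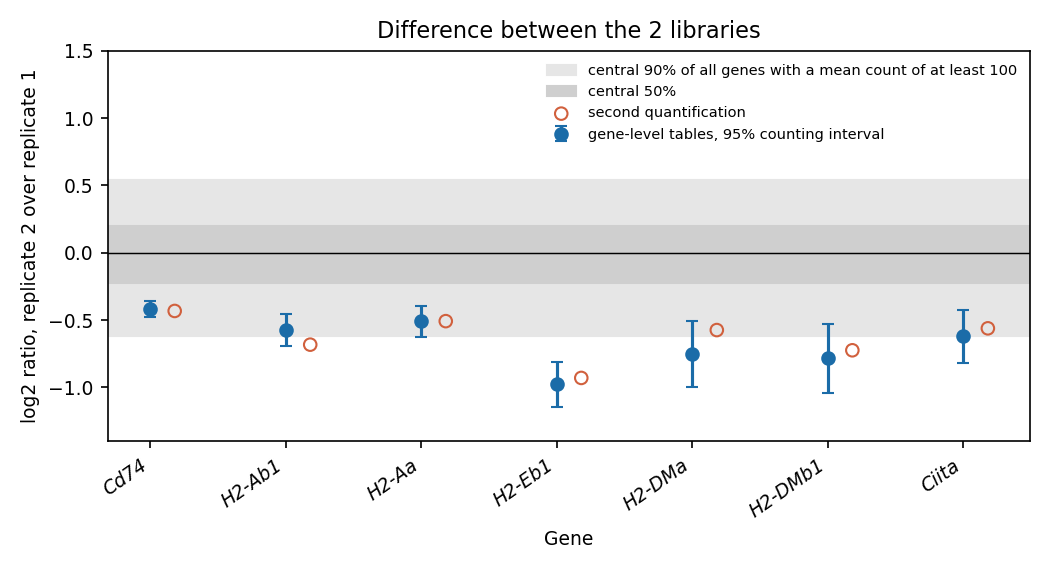
Log2 ratio of replicate 2 over replicate 1 for the 7 members past the filter on low counts, with filled points and bars for the gene-level tables and their 95% counting intervals and open points for the second quantification. The grey bands hold the central 50% (dark) and 90% (light) of the genes that reach 100 counts on average; every filled point lies under the dark band, from -0.42 for Cd74 to -0.98 for H2-Eb1.

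Other gene groups moved between the libraries with them. Every one of the 12 macrophage markers was lower in replicate 2. Their median ratio was -0.33, and Fcgr1 (-1.03) and C1qa (-1.02) passed the rule for genes apart. The 11 genes acting on Ciita that reached a mean of 100 counts were all lower as well, with a median of -0.32 and Irf1 at -0.61. Spi1 is on both of these lists. Of the other class II pathway genes 9 of 12 were lower, with a median of -0.23. Lgmn (-0.81), Ctss (-0.76) and Ctsl (-0.71) lay near the DM genes, whereas Rfx5 (0.44), Nfyb (0.18) and Creb1 (0.14) were higher in replicate 2. Co-stimulatory genes differed less, with 4 of 5 lower, a median of -0.11 and Cd80 higher at 0.36. The members' median was -0.62. The libraries also differed in the starting amount of RNA, and its part in these ratios cannot be told apart from that of the cultures. Total expected counts were lower in replicate 2, whereas total estimated counts of the second quantification were higher there (30419009 and 32279044). By counts after TMM scaling the 7 members were lower in replicate 2 in both quantifications. The size of the difference depended on the measure. By TPM of the second quantification Cd74 was at 78.6 and 76.8, H2-Ab1 at 24.9 and 24.4, and H2-Eb1 at 14.8 and 10.2.

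The annotated transcript types of the members differed from gene to gene. For H2-Aa, H2-Ab1, H2-DMb1 and Cd74 a single protein-coding transcript took most of the TPM in both libraries. H2-Aa-201 took 92.3% and 89.7% of its gene's TPM, H2-DMb1-201 97.4% and 95.5%, and Cd74-201 69.5% and 71.9%. H2-Ab1-201 took 86.3% in replicate 1 and 73.2% in replicate 2, while the retained-intron transcript H2-Ab1-203, of 515 bases, had 4.90% and 19.6% (24.62 and 64.97 counts). The count of this transcript was thus higher in replicate 2 although its gene was lower there, and the second quantification gave it 3.20% and 23.4%.

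**Figure D4:**
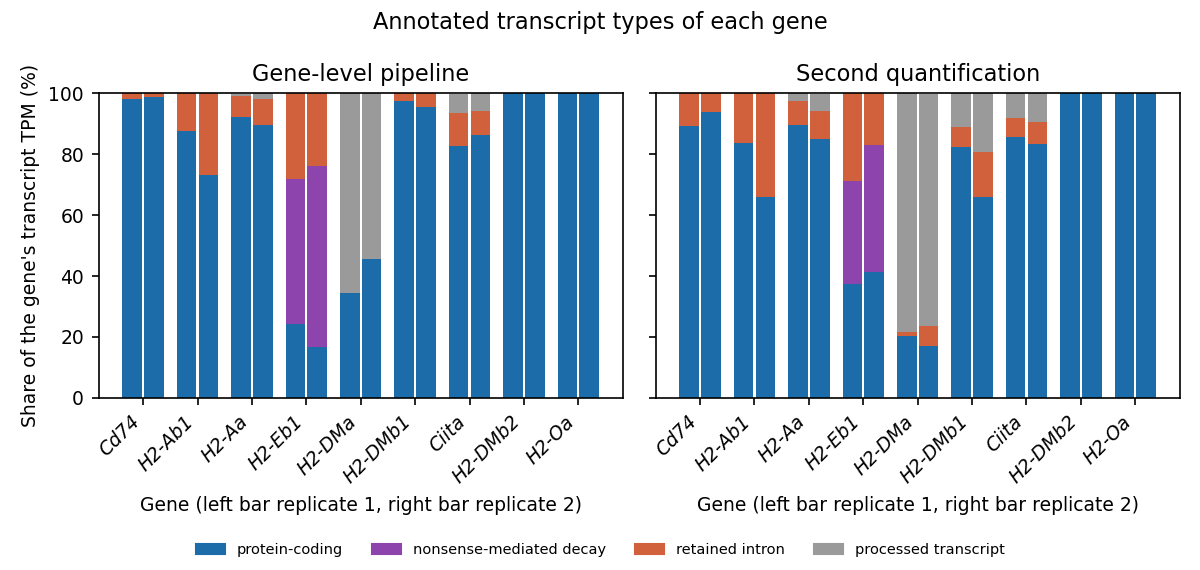
Share of each gene's transcript TPM by annotated transcript type, in the gene-level pipeline (left) and the second quantification (right), with replicate 1 as the left and replicate 2 as the right bar of each pair. In the gene-level pipeline protein-coding transcripts lead in every gene except H2-Eb1, where the type subject to nonsense-mediated decay has 47.5% and 59.3%, and H2-DMa, where processed transcripts lead.

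Retained-intron transcripts took less of the members' TPM than of the typical gene's. An annotated retained-intron transcript and 1 TPM or more in both libraries were found for 6143 protein-coding genes, 7 of them members. H2-DMb2 and H2-Oa were under that level. The median share was 6.77% in replicate 1 and 7.87% in replicate 2 over the 7 members, and 29.2% and 30.7% over all 6143 genes. All 7 members were under the median of all genes in both libraries, as were 43.7% of the 6143. The lowest share was 0% for H2-DMa, and the highest were 28.2% for H2-Eb1 in replicate 1 and 26.8% for H2-Ab1 in replicate 2. Measured by expected counts, which do not divide by transcript length, 5 of the 7 were under the median of all genes (17.2% and 18.5%) in both libraries, as were 46.2% of the 6143. H2-Aa was above it with 19.6% and 23.6%, and H2-Eb1 in replicate 1 with 18.03%. The retained-intron transcript H2-Aa-203 is 3223 bases long and H2-Aa-201 1128.

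For H2-Eb1 the largest share of TPM went to a transcript annotated as subject to nonsense-mediated decay. This pathway degrades RNAs with an early stop codon. Among the members only H2-Eb1 has an annotated transcript of this type, so the other chains could not show such a share. H2-Eb1-205 took 47.5% in replicate 1 and 59.3% in replicate 2. It lacks 53 bases at the start of exon 2 that H2-Eb1-203 has. The protein-coding H2-Eb1-203 took 18.6% and 6.06%, and H2-Eb1-201, also protein-coding, 5.63% and 10.7%. The last exon of H2-Eb1-203 runs 475 bases further, and exon 4 of H2-Eb1-201 is 238 bases against 111 in the other 2. H2-Eb1-205 is the only annotated transcript that joins the 111-base exon 4 with the shorter last exon, so that reads from a molecule with those 2 features and an intact exon 2 have no annotated transcript of their own. The second quantification gave H2-Eb1-205 34.00% and 41.99%, against 37.3% and 41.2% for the protein-coding transcripts together. The share of H2-Eb1 assigned to the decay type is therefore uncertain. The gene's TPM is summed over transcripts of different lengths and so depends in part on the same assignment, which was not tested.

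The level of H2-DMa rested in large part on a short transcript. H2-DMa-203, a processed transcript of 350 bases without an annotated coding sequence, took 53.6% of the gene's TPM in replicate 1 and 43.4% in replicate 2, from 61.7 and 22.0 counts. The protein-coding H2-DMa-205, of 1108 bases, had 260 and 130 counts, 61.3% and 61.5% of the gene's counts, but 31.4% and 39.4% of its TPM. Without transcripts under 500 bases H2-DMa was at 15.2 TPM in replicate 1 and 8.50 in replicate 2, a lowering by more than 1.5 times. At that level it stood near H2-DMb1, at 11.7 and 6.70 TPM. Of the 8 transcripts of H2-DMa, 3 begin near position 34122822 of chromosome 17, 188 bases from the start of Brd2, which is transcribed the other way. They held 27.4% and 18.9% of the gene's counts, and the 2 transcripts that begin near position 34135628 held 67.0% and 74.0%. By TPM the order was the reverse, with 62.3% and 49.0% near Brd2 against 32.8% and 43.4%. In the second quantification the counts were nearly even, at 44.5% and 44.0% against 45.2% and 39.3%, so the leading start of H2-DMa depends on the measure.

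Cd74 was measured in both of its coding forms. A form with an additional exon of 192 bases (chr18:60811294-60811485, exon 7 of 9 in Cd74-202) encodes the longer invariant chain known as p41, whose thyroglobulin-type domain is known to bind cathepsin L, and the form without it, Cd74-201 with 8 exons, encodes p31. Transcripts with the exon had 56.8 TPM in replicate 1 and 38.7 in replicate 2, and the transcript without it 138 and 104 TPM. The longer form made up 29.2% and 27.2% of both forms' TPM. The shorter form was thus the more abundant in both libraries, and the second quantification put the longer at 34.1% and 32.5%. Measured by counts it was at 32.9% and 30.6%.

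Ciita transcripts used 3 annotated first exons, and the order of their shares depended on the measure. The gene is known to have separate promoters active in dendritic and other myeloid cells, in lymphocytes, and under interferon gamma. The annotation does not name which first exon belongs to which. In map order, the first exons begin at positions 10480059, 10488178 and 10489746 of chromosome 16, with 3, 2 and 3 transcripts. By expected counts the middle exon had the largest share, 65.0% in replicate 1 and 65.6% in replicate 2, with 20.8% and 23.1% for the last and 14.2% and 11.3% for the first. By TPM the last exon led with 46.6% and 51.4%, ahead of the middle exon with 39.0% and 37.7% and the first with 14.4% and 10.9%. The first exon in map order was lowest by each measure in both libraries and both quantifications.

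The transcripts behind these first exons differ in length. Ciita-201, which begins with the middle exon, is 6007 bases long and is the only transcript with the final 1992 bases of the gene, so all counts in that stretch go to the middle group. It had 353 and 196 counts. Ciita-204, which begins with the last of the first exons, is a 2-exon transcript of 1620 bases that ends at position 10492234, and it had 88 and 51 counts but 33.9% and 34.3% of the gene's TPM. Ciita-203, the transcript of the same first exon with 19 exons, had 32.0 and 19.7 counts. Ciita-208, also of this first exon, is 680 bases long with 6 exons. In the second quantification Ciita-208 led with 37.9% and 35.3% of the gene's TPM, against 20.2% and 20.6% for Ciita-204. Only 25.2 and 12.4 counts fell to Ciita-205, the 19-exon coding transcript of the first exon in map order, and its retained-intron partner Ciita-207 had 61.28 and 25.03.

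**Figure D5:**
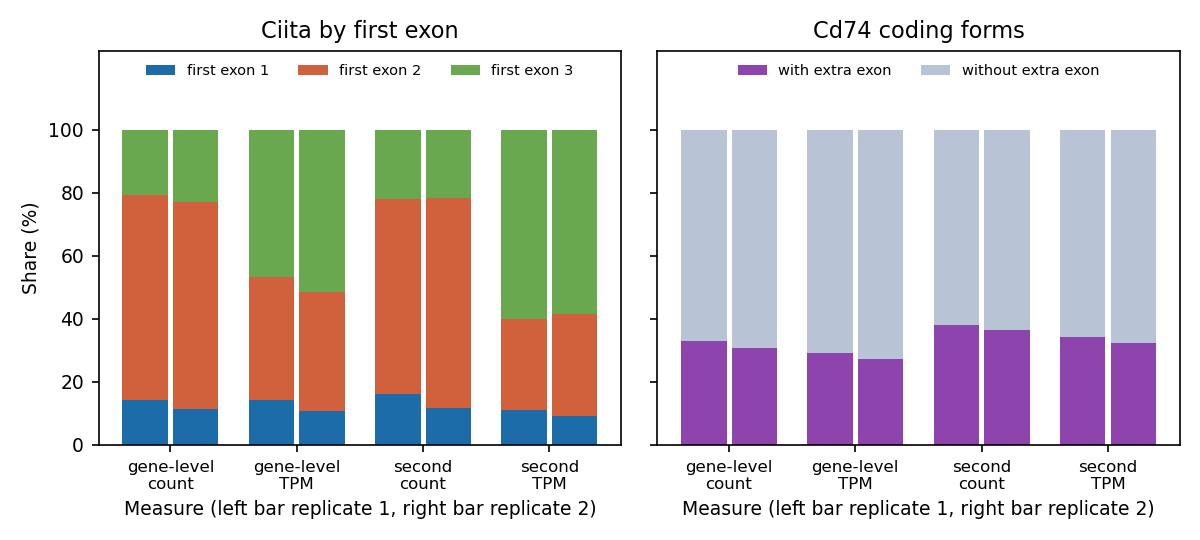
Left, shares in percent of Ciita by annotated first exon, numbered in map order; right, shares of the Cd74 coding forms with and without the 192-base exon; each for counts and TPM of the gene-level pipeline and of the second quantification, with replicate 1 as the left and replicate 2 as the right bar. First exon 2 of Ciita leads by counts (65.0% and 65.6%) and first exon 3 by TPM (46.6% and 51.4%), while the Cd74 form with the exon is the smaller by each measure, from 27.2% to 38.2%.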

How the data were processed

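Values were taken as deposited. Per the labels, the assembly is mm10. Per the README files deposited with the tables, the annotation is GENCODE mouse release 21, the gene-level tables derive from transcriptome alignments and a second transcript table from the reads directly. Which programs made the values, and whether they used strand, is not given in the sources used here. The deposited gene and transcript tables hold expected counts and TPM per the file headers, and the second quantification holds estimated counts and TPM, summed here per gene (totals 30419009 and 32279044).

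The 9 members and the gene lists were chosen with earlier results of these data known. Named were all members, all other class II genes, and of each other list the 3 highest and the lowest by mean TPM and genes at 0, except for a few that are not reported here. Markers that differed in the second quantification, and genes named for their ratio between libraries, were picked after their values were seen. With 1 group, no test between groups was made, no gene could be named for a like pattern, and the spread is that of 2 biological replicates. Expected counts were rounded for log2 ratios (edgeR 4.0.16 in R 4.3.3, TMM, prior count 0.5, no p-value), with exact (Clopper-Pearson) 95% intervals. The ratio step was tested on simulated data. DESeq2 1.42.0 size factors, library totals, no filter, other pseudocounts, TPM rescaled to protein-coding genes and posterior mean TPM were alternatives. Promoters are RefSeq's, build GRCm38.p6. Transcript alignments used Biopython 1.88, and tables pandas 2.3.3 in Python 3.11.15.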

Additional observations from a re-analysis of the deposited data

How the results depend on the processing

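The number of members at 10 TPM or more in both libraries was 5 and stayed within 1.5 times of that with the second quantification (5), TPM rescaled to protein-coding genes (7), a threshold of 1 TPM (7) and with a library left out (5 to 6), but was 1 at a threshold of 100 TPM. The median member level, 4.48 on the log2 scale, was 3.63 with the second quantification, and 3.92 to 5.03 with a library left out. The median retained-intron share, 7.32% over both libraries, was 8.51% with the second quantification, 6.77% by expected counts, and 6.77% to 7.87% with a library left out. The cause of these shifts was not tested. The median log2 ratio between libraries ranged from -0.63 to -0.56 over 4 alternatives, with 0 members apart in each. The signs for H2-DMb2 (-0.45) and H2-Oa (0.65) turned in the second quantification, within their counting intervals. Leaving out a library leaves no ratio. The leading transcript was unchanged for 7 of 9 members with the second quantification and for 7 by expected counts, an alternative chosen after seeing the data. Levels moved by over 1 SD for 6 members with the second quantification and for 2 (H2-DMb2 and H2-Oa) with posterior mean TPM. They moved for all 9 with TPM rescaled to protein-coding genes, where Cd74 was at 605 and H2-Aa at 166. H2-DMb2 had 0.24 TPM in both libraries, an SD of 0, so any change of its level was bound to count as a move. Protein-coding genes held 27.5% of TPM in replicate 1 and 29.5% in replicate 2. The rescaling therefore raises every gene of a library by the same factor. Depth limits H2-DMb2, H2-Oa and H2-Ea-ps, whose counts do not order them.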
